A study of Mus musculus with 12 samples.

Results

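The genes described here encode the proteins of complement and blood coagulation, with their inhibitors and receptors. The list holds 47 mouse genes, and a probe set was taken as a member where the platform's probe table gives it exactly 1 gene symbol and that symbol is on the list. This gave 52 probe sets of 40 genes among the 12422 probe sets (8251 genes) analysed, and the other 7 genes (C1s, C1s1, C6, C8a, C8b, Cfd and F11) are not analysed here. The arrays were 12 Affymetrix mouse arrays of total liver RNA, 2 for each of 6 groups, taken 4 h after an injection into the peritoneum. Control mice were albumin-cre(-) Socs3(w/fl), with 1 wild-type and 1 floxed Socs3 allele and no Cre. They were given phosphate-buffered saline, here PBS, or interleukin-6, here IL-6. Socs3-deleted mice were albumin-cre(+) Socs3(-/fl), with 1 null allele in every cell and 1 floxed allele that the recombinase removes in hepatocytes, and received the same injections. Ifng-null mice (Interferon-gamma-/-) received PBS or interferon-gamma (IFN-γ). The Cre is driven by the albumin promoter, so cells of the liver other than hepatocytes keep the floxed allele while carrying the null one. No group of Socs3-deleted or control mice received IFN-γ, and no Ifng-null group received IL-6. The labels give neither age, sex, strain nor dose, and leave unsaid whether the 2 replicates of each group come from different mice. The p-values therefore measure only the spread between these arrays.

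Most proteins of complement and coagulation are made by hepatocytes and secreted into plasma as inactive precursors. Complement starts on a surface through C1, through mannose-binding lectins or through the alternative pathway, converges on C3 and C5, and ends in a pore built from C5b to C9. Coagulation runs from tissue factor and the contact system to thrombin, which turns fibrinogen into fibrin, and plasmin later dissolves the clot. Serpins restrain both cascades, and the vitamin K-dependent proteins C and S restrain coagulation. IL-6 acts on hepatocytes through STAT3 and starts the acute phase response, in which genes such as those of fibrinogen are induced, and SOCS3 is the feedback inhibitor of that signal.

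Values are signal intensities on a linear scale, as deposited. Array medians ran from 80.6 to 85.7. The brighter Socs3 probe set averaged 85.3 ± 14.3 (SD, n = 4) on the arrays of Socs3-deleted mice and 137 ± 22.2 (SD, n = 4) on those of control mice, and the 2 sets of values did not overlap (exact two-sided permutation test over 70 splits, p = 0.0286; p = 0.0556 permuting within each injection). Of 15 hepatocyte markers 13 were measured, among them albumin, and each lay above the floor on some array. The second PBS array of control mice and the second PBS array of Socs3-deleted mice stood apart by the summed intensity of 9 pancreatic enzyme genes, 8772 and 20627 against 1457 to 1710 on the other 10 arrays. Hba-a1 and Hbb-b2, haemoglobin genes, were also highest on these 2 arrays. Hba-a1 read 6389 and 4864 there, and 3649 and 3584 on the second IL-6 array of either genotype. The first arrays of the same groups read 294 to 1688, and the Ifng-null arrays 317 to 1298. Alas2, another erythroid marker, was not raised there, at 640 and 560. The part of the haemoglobin signal in the members' values was not tested. Several results that rest on the 2 arrays of high pancreatic signal are given with and without them, and others only with them. Of the 52 member probe sets, 47 (38 genes) lay above the floor of 33.0 on at least 2 arrays and were tested. The other 5 were both probe sets of Thbd, the dimmer probe sets of C2 and C8g, and the single one of Tfpi. A change is given as the difference of mean log2 intensities ± SE, with 2 arrays per group. A probe set was called at a Benjamini-Hochberg adjusted p under 0.05 over all 9641 probe sets tested.

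No member probe set was called in any of the 9 comparisons, nor by limma's moderated F test for any difference among the 6 groups. In the IL-6 response of control mice 0 of 47 were called, where 0% of all probe sets were, and 0 of 47 had an unadjusted p under 0.05 (2.57% of all). In the IL-6 response of Socs3-deleted mice 0 of 47 were called against 1.17% of all, and 7 had an unadjusted p under 0.05 (10.8% of all). For the contrast of both IL-6 responses the count was 0 of 47 against 0.0415% of all, with 1 member at an unadjusted p under 0.05 (3.94% of all). In the IFN-γ response 0 of 47 were called against 0.653% of all, and 3 had an unadjusted p under 0.05 (6.93% of all). Between Socs3-deleted and control mice the counts were 0 of 47 against 0% after PBS and 0 of 47 against 0.954% after IL-6, with 7 and 3 members at an unadjusted p under 0.05 (4.17% and 9.09% of all). Ifng-null compared with control mice gave 0 of 47 called against 0%, and 1 had an unadjusted p under 0.05 (3.08% of all). Averaged over both genotypes, IL-6 gave 0 of 47 against 1.06%, and averaged over both injections, the Socs3 genotype gave 0 of 47 against 0.799%. The unadjusted counts for these averages were 3 (9.19% of all) and 9 (9.79% of all). The F test called 0 of 47 against 2.01% of all, and 7 had an unadjusted p under 0.05 (11.2% of all).

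The intervals give a range for the change of each member, resting only on the spread between these arrays. Each holds for 1 probe set alone, with no allowance for the 47 together. The 95% intervals of all 47 lay within a 2-fold change either way for IL-6 in control mice, and those of 33 lay within 1.5-fold. In Socs3-deleted mice 42 of 47 lay within 2-fold after IL-6, and in Ifng-null mice 46 of 47 after IFN-γ. The widest intervals belonged to the difference between the IL-6 responses, where 36 of 47 lay within 2-fold. The control PBS arrays enter the IL-6 response of control mice and the comparisons of both mutant lines with them, so these 3 comparisons share samples.

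**Figure D1:**
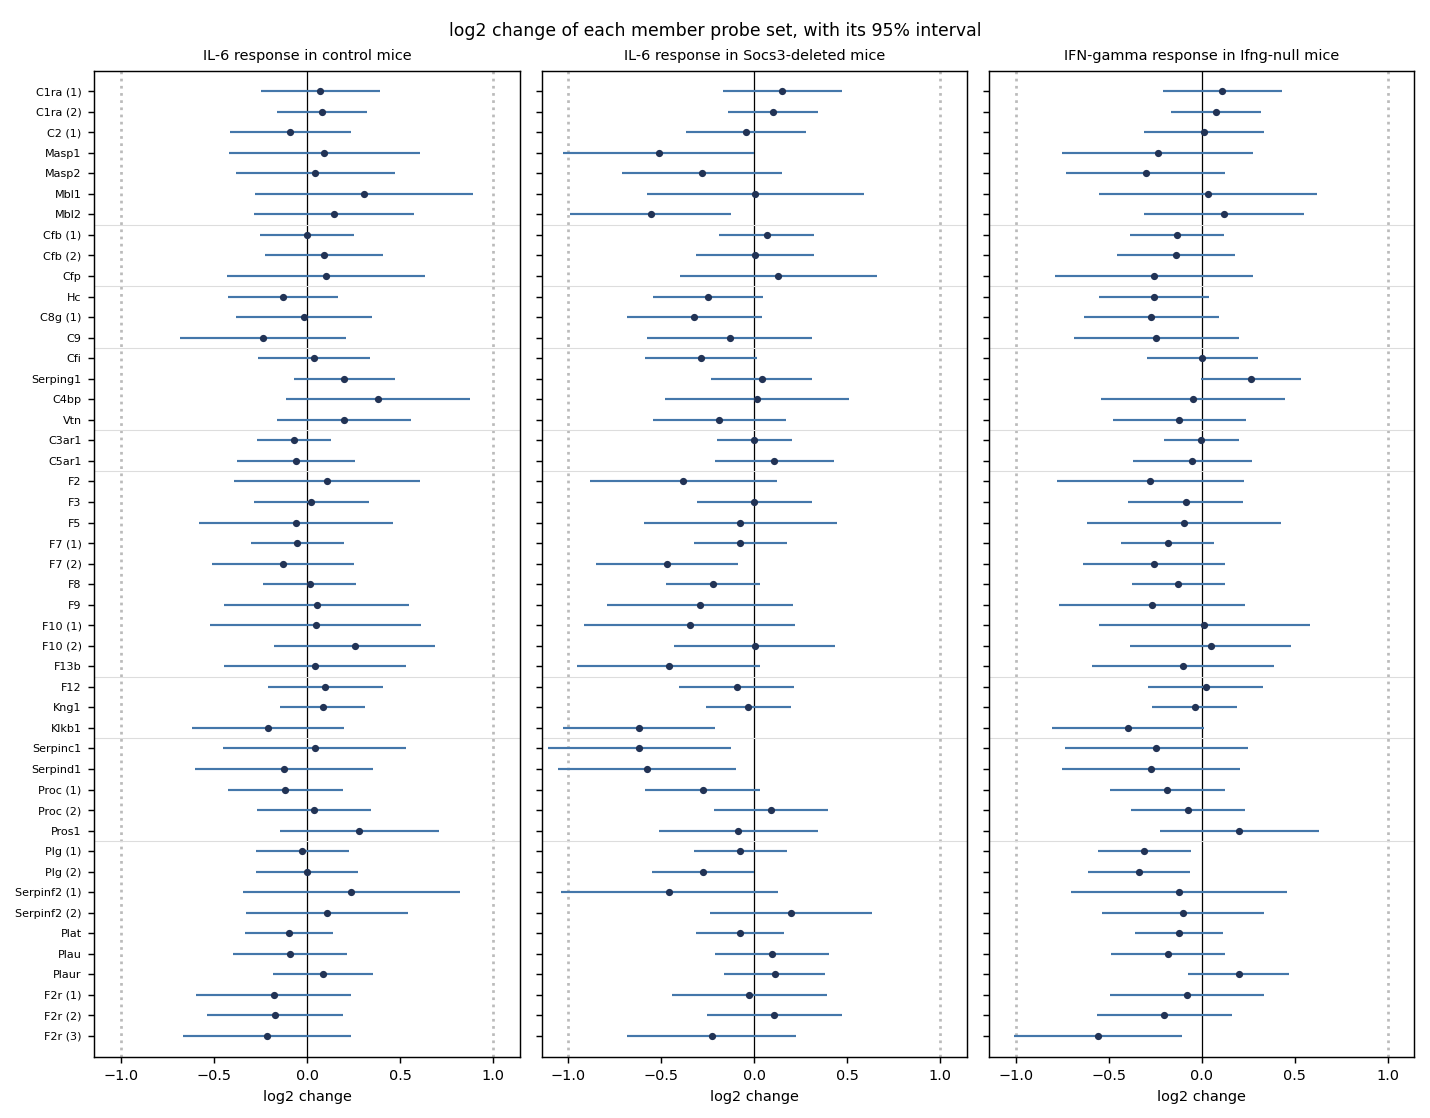
The log2 change of each of the 47 tested member probe sets (points) with its 95% interval (lines) is plotted by role for IL-6 in control mice, IL-6 in Socs3-deleted mice and IFN-γ in Ifng-null mice; numbers after a name rank the probe sets of 1 gene by brightness, and dotted lines mark a 2-fold change. In control mice 0 intervals cross a dotted line, while 5 do so after IL-6 in Socs3-deleted mice and 1 after IFN-γ.

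The members leaned one way as a group in several comparisons, by small amounts. Their median log2 change was 0.04 after IL-6 in control mice (-0.01 over all probe sets), -0.08 for IL-6 in the Socs3-deleted ones (0.00 over all) and -0.12 after IFN-γ (-0.03 over all). It was 0.13 between Socs3-deleted and control mice after PBS (-0.02 over all) and 0.14 for Ifng-null compared with control mice (-0.01 over all). After IFN-γ the member median was -0.05 without the second Ifng-null PBS array and -0.05 without the first IFN-γ array, equal to the -0.05 over all probe sets in each case, and -0.21 without the second IFN-γ array. The medians of both mutant lines after PBS rest on the second control PBS array, on which 35 of 47 members read lower than on its replicate, by a median of -0.19. Without that array they were 0.03 and 0.02, and without both arrays of high pancreatic signal the first was -0.01. The median of the IL-6 response in control mice was likewise -0.05 without that array. The difference between the IL-6 responses had a member median of -0.16 (0.01 over all), and it was -0.06 without the second control PBS array and -0.03 without both. After IL-6, Socs3-deleted against control mice had a median of -0.05 (-0.01 over all).

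**Figure D2:**
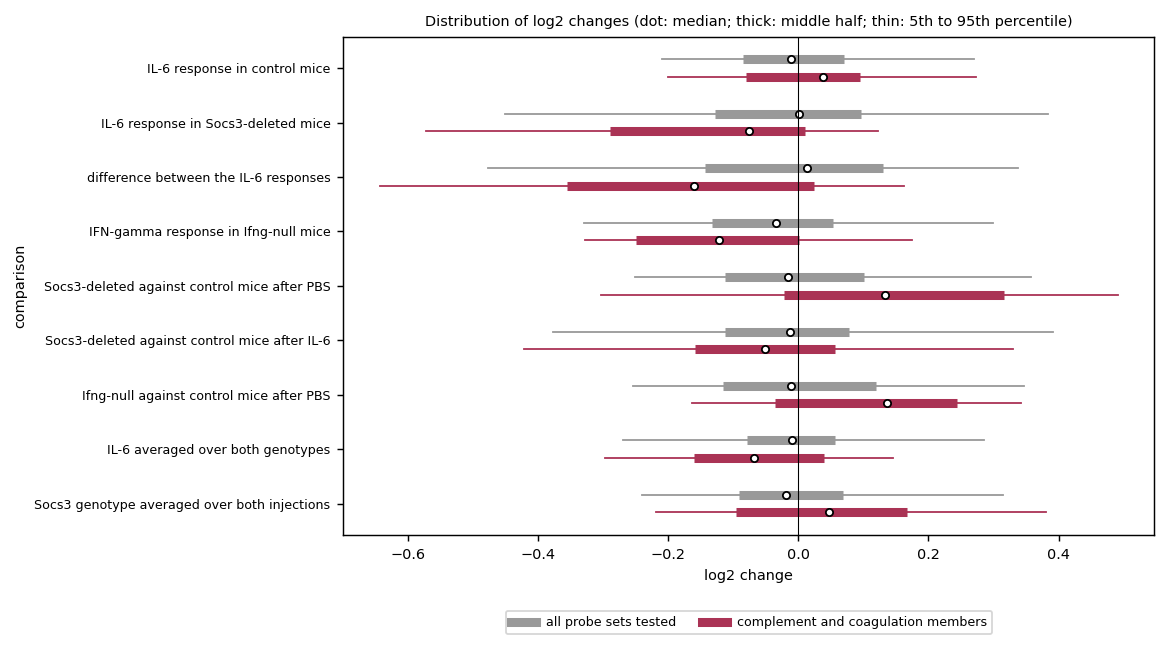
Each pair of bars shows the spread of log2 changes of all 9641 probe sets tested (grey) and of the 47 member probe sets (red) in 1 comparison, with the median as a dot, the 25th to 75th percentiles as a thick line and the 5th to 95th percentiles as a thin line. The member medians lie between -0.16 and 0.14 and 0 of the 47 were called.

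With 2 arrays against 2, an exact permutation test cannot go below p = 0.333, so whether 2 groups overlap is given as a description. In the IL-6 response of control mice the 2 groups did not overlap for 4 members that were higher (12.6% of all probe sets) and 2 that were lower (14.3%). In Socs3-deleted mice 5 were higher after IL-6 (19.0%) and 18 were lower (21.1%). After IFN-γ 4 were higher (9.57%) and 14 were lower (17.0%). Socs3-deleted mice stood above control mice without overlap for 18 members after PBS (15.6%) and below them for 7 (17.9%), and after IL-6 the counts were 7 (17.6%) and 12 (22.7%). Ifng-null mice stood above control mice for 8 (12.6%) and below for 3 (15.1%). Over the 8 arrays of both genotypes, 0 members separated by IL-6 in either direction (1.41% and 1.45%). By Socs3 genotype 5 were higher (1.86%) and 3 lower (3.10%).

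**Figure D3:**
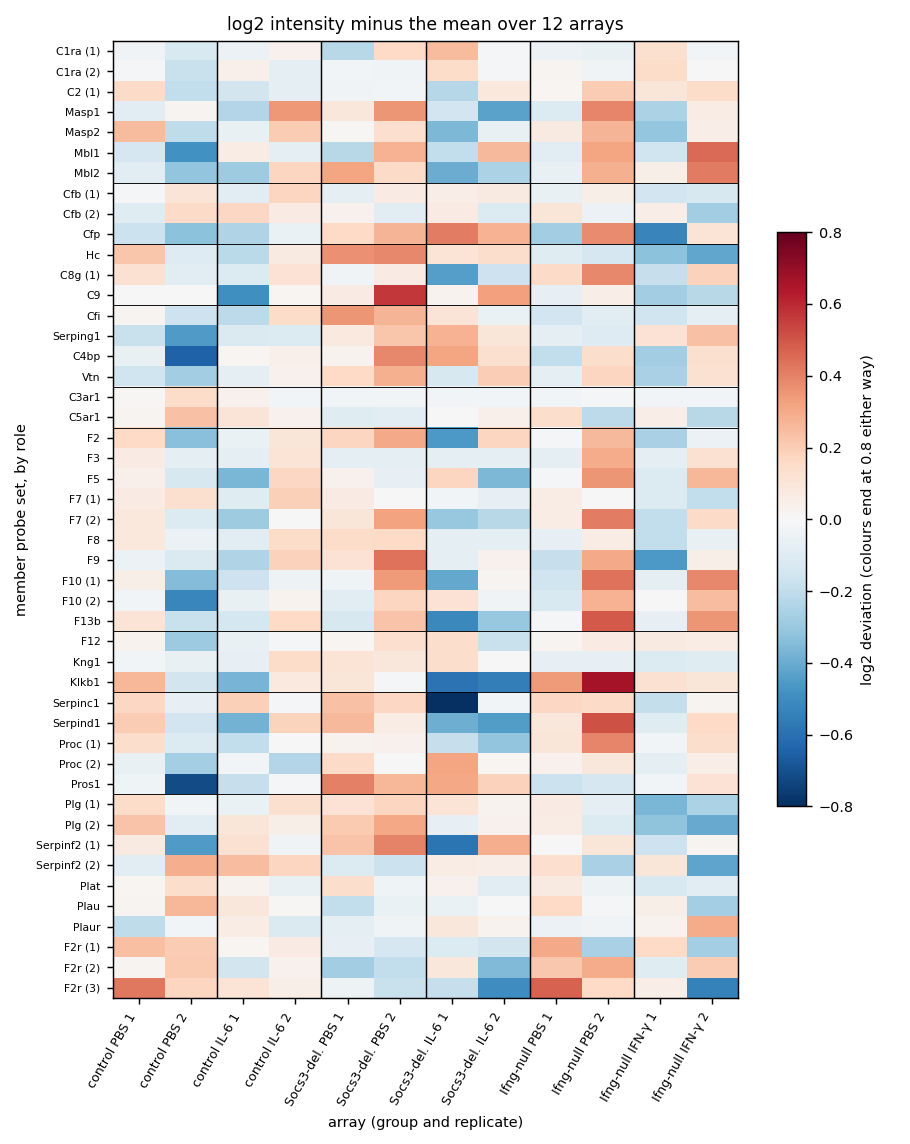
Rows are the 47 tested member probe sets grouped by role and columns are the 12 arrays; colour gives the log2 intensity minus the mean over the 12 arrays, and colours end at 0.8 either way. The second control PBS array is pale to blue in most rows, Serpinc1 is darkest on the first Socs3-deleted IL-6 array, and Klkb1 is blue on both arrays of that group.

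Promoter sequences are shown for Pros1 and Serpinc1, which passed the test in 1 alternative each described below, for Klkb1, with the smallest F test p of the members, and for Fgb, an IL-6 target outside the list that serves as a reference. Each is a RefSeq window on GRCm38.p6 from 250 bases before to 50 bases after the gene's start, read on the gene's strand. Capitals mark matches on either strand to TTCNNNGAA (a GAS-type site) or TTGCNNAA (a C/EBP-type site). Pros1 lies at chr16:62854057-62854356 (plus strand), Klkb1 at chr8:45294786-45295085 (minus strand), Serpinc1 at chr1:160978333-160978632 (plus strand) and Fgb at chr3:83049814-83050113 (minus strand).
Pros1: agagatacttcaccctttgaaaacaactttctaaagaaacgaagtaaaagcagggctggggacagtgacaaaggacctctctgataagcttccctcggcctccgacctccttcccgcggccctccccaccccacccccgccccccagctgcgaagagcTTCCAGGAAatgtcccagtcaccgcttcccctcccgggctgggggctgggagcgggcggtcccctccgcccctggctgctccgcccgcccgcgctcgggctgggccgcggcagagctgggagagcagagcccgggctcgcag
Klkb1: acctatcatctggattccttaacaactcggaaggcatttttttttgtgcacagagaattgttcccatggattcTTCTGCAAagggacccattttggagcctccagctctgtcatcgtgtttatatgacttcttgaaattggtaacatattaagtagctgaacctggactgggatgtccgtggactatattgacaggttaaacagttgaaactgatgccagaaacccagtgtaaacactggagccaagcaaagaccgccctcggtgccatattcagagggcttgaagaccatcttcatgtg
Serpinc1: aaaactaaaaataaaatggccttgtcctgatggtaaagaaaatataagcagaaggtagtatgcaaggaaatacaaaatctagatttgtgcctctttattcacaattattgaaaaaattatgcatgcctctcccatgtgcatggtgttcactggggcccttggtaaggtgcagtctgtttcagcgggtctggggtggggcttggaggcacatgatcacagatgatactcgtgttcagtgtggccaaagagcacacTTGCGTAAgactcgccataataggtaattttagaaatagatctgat
Fgb: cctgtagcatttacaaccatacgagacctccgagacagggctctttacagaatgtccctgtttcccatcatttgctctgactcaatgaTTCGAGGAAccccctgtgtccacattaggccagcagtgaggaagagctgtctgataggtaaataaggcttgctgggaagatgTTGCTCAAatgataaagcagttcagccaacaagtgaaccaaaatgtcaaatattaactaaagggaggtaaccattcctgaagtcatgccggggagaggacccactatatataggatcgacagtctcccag
The Pros1 window holds 1 GAS-type match, TTCCAGGAA, starting 92 bases before the gene's start. Klkb1 holds 1 C/EBP-type match on the opposite strand (TTCTGCAA as printed), starting 177 bases before, and Serpinc1 holds 1, TTGCGTAA, just after its start. Fgb holds 1 of each, 162 and 80 bases before. A window was at hand for 29 of the 40 measured members, in 31 windows. None was at hand for Serping1, which also passed the test in 1 alternative. GAS-type matches were in 5 of the 31 (16.1%, against 8.30% of all 32851 windows) and C/EBP-type matches in 6 (19.4%, against 10.8%). Besides those printed, GAS-type matches lay in the windows of C1ra, F9, Masp2 and Vtn and C/EBP-type matches in those of C1ra, C9, F9 and Plaur. A match describes these letters and is no evidence of binding.

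Among the recognition molecules and proteases that start complement, Mbl2 and Masp1 were lower in Socs3-deleted mice after IL-6, without passing the test. Mbl2, a mannose-binding lectin that opens the lectin pathway, read 782 and 702 after PBS and 478 and 529 after IL-6 in these mice. On the control arrays Mbl2 read 594 and 507 after PBS and 518 and 710.3 after IL-6. The groups were apart in Socs3-deleted mice and overlapped in control mice. The change in Socs3-deleted mice was -0.56 ± 0.19 (adjusted p = 0.289, 95% interval from -0.99 to -0.13) against 0.14 ± 0.19 in control mice (0.03 without the second control PBS array), and the difference between these responses was -0.70 ± 0.27 (adjusted p = 0.999, 95% interval from -1.31 to -0.09). This was the single member with an unadjusted p under 0.05 for the difference, and it did not pass the adjusted test. In Ifng-null mice Mbl2 read 604 and 766 after PBS and 650.5 and 842 after IFN-γ, which overlap. Both Ifng-null PBS arrays lay above both control PBS arrays, by 0.31 ± 0.19 (adjusted p = 0.873), and by 0.20 without the arrays of high pancreatic signal.

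Masp1, a protease that travels with these lectins, read 196 and 213 after PBS and 178 and 266 after IL-6 in control mice. In the Socs3-deleted mice it read 223 and 267 after PBS and 188 and 155 after IL-6, a change of -0.51 ± 0.23 (adjusted p = 0.461). The difference between the responses was -0.61 ± 0.32 (adjusted p = 0.999). The Ifng-null arrays of Masp1 read 194 and 274 after PBS and 175 and 218 after IFN-γ and overlapped. Masp2, which cleaves C4 and C2 in the lectin pathway, read 424 and 309 after PBS and 341 and 409 after IL-6 in control mice. It read 358 and 389 after PBS and 277 and 341 after IL-6 in the Socs3-deleted mice. In Ifng-null mice it read 373 and 429.7 after PBS and 287 and 369 after IFN-γ, a change of -0.30 ± 0.19 (adjusted p = 0.933). The groups of that last pair were apart by a narrow gap.

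Mbl1, the other mouse mannose-binding lectin, read 424 and 332 after PBS and 486 and 442 after IL-6 in control mice. The Socs3-deleted arrays read 399 and 565 after PBS and 406 and 558 after IL-6, and the Ifng-null arrays 438 and 579 after PBS and 417 and 638 after IFN-γ. The IL-6 change in control mice was 0.30 ± 0.26 (adjusted p = 1), and Ifng-null exceeded control mice after PBS by 0.42 ± 0.26 (adjusted p = 0.873). The second control PBS array was the lowest of the 12, and within each of the 4 other groups the replicates lay further apart than the means of the 2 control groups. Without the 2 arrays of high pancreatic signal the IL-6 change was 0.13 and the Ifng-null difference 0.25. C1ra encodes the protease that activates C1s, and its brighter probe set has the array maker's suffix for probes shared by a gene family. C1ra ranged from 508 to 706 on its brighter probe set and from 262 to 329 on its dimmer one. C2, which supplies the protease of the classical C3 convertase, ranged from 378 to 509. For these genes the largest pairwise log2 change was that of C1ra after IL-6 in Socs3-deleted mice, 0.15 ± 0.14, or 0.34 without the 2 arrays of high pancreatic signal.

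The alternative pathway was represented by 2 measured genes. Cfp encodes properdin, which stabilises the alternative C3 convertase and is made largely by myeloid cells. It read 82.1 and 73.7 after PBS and 78.2 and 89.3 after IL-6 in control mice, and 103 and 112 after PBS and 123 and 112 after IL-6 in the Socs3-deleted mice, so that all 4 Socs3-deleted arrays lay above all 4 control ones. The Socs3 difference averaged over both injections was 0.48 ± 0.17 (adjusted p = 0.331), with 0.46 after PBS and 0.49 after IL-6. The Ifng-null arrays of Cfp read 76.5 and 120.2 after PBS and 64.3 and 100.1 after IFN-γ, with replicates further apart than the mean Socs3 difference. The macrophage markers were also higher in sum, but not each of them. Of 18 macrophage and Kupffer cell markers 13 were measured, and their summed intensity was 3258 to 3733 on the control arrays and 4060 to 6355 on the Socs3-deleted arrays. The sum of 6355 was that of the first Socs3-deleted IL-6 array. Their median log2 difference by Socs3 genotype was 0.39, with 1 called. C1qa, C1qb, Mpeg1 and Ctss were higher without overlap. Cd68, at 125 to 173 in Socs3-deleted mice, spanned its control range of 144 to 169, and Adgre1 also overlapped. The part of these markers in the values of Cfp, and of C9, Serping1 and Pros1, which separate the same arrays, was not tested. Cfb, the protease of the alternative convertase, lay between 52.4 and 65.9 on its brighter probe set and between 41.7 and 56.5 on its dimmer one, and their largest pairwise change was -0.14.

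Of the terminal pathway, Hc, C8g and C9 were measured. Hc encodes C5, whose cleavage starts the pore. It read 1704 and 1363 after PBS and 1259.6 and 1541 after IL-6 in control mice. The Socs3-deleted arrays of Hc were the 2 highest of the 12 after PBS, 1887 and 1913, and read 1582 and 1612 after IL-6. The Ifng-null arrays were low, 1367 and 1336 after PBS and 1167 and 1095 after IFN-γ. Its F test gave an adjusted p of 0.129, the second smallest among members, and the Socs3 difference averaged over both injections was 0.26 ± 0.09 (adjusted p = 0.351). C9, the subunit that lines the pore, read 2242 and 2245 after PBS and 1597 and 2266 after IL-6 on the control arrays. It read 2343 and 3309.7 after PBS and 2289 and 2815 after IL-6 on the Socs3-deleted arrays, and 2140.3 and 2323 after PBS and 1847 and 1920.4 after IFN-γ on the Ifng-null arrays. All 4 Socs3-deleted values of C9 exceeded all 4 control values, the averaged difference being 0.36 ± 0.14 (adjusted p = 0.409). Without the 2 arrays of high pancreatic signal it was 0.24. C8g, the lipocalin-like chain of C8, read 3301 and 2860.2 after PBS and 2809 and 3284 after IL-6 in control mice, and 2980.1 and 3172 after PBS and 2239.7 and 2701 after IL-6 in the Socs3-deleted mice. In Ifng-null mice it read 3369 and 3969 after PBS and 2669.7 and 3443 after IFN-γ, which overlap, although each IFN-γ array was below the PBS array of the same replicate number, and the PBS arrays exceeded the control PBS arrays by 0.25 ± 0.16 (adjusted p = 0.873), or by 0.15 without the second control PBS array.

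The soluble inhibitors of complement were the role in which every measured gene stood higher in Socs3-deleted than in control mice after PBS, with no overlap for 4 of 4 against 15.6% of all probe sets, and an unadjusted p under 0.05 for each, against 4.17% of all. This role was picked out after its values were seen. None passed the adjusted test. For each of the 4, the second control PBS array read lower than the first. Without the 2 arrays of high pancreatic signal, 1 PBS array per genotype remains, and the Socs3-deleted one was still the higher for each gene. The difference was then 0.25 for Serping1 and 0.09 for C4bp. Those remaining arrays read 4098 against 3285 for Vtn and 3546 against 2827 for Cfi. Serping1 encodes C1 inhibitor, the serpin that blocks C1r, C1s and the MASPs as well as factor XIIa and kallikrein. It read 3028 and 2503 after PBS and 3158 and 3169.8 after IL-6 in control mice, and 3611 and 3990.1 after PBS and 4152 and 3664 after IL-6 in the Socs3-deleted mice. All 4 Socs3-deleted values exceeded all 4 control values. The averaged difference was 0.38 ± 0.09, or 1.3-fold (adjusted p = 0.0907, 95% interval from 0.19 to 0.57), with 0.46 after PBS and 0.30 after IL-6. This was the smallest adjusted p of any member in a contrast. It passed the threshold under 1 of 23 alternative settings, with array weights (adjusted p = 0.0491), and adjusted p ranged from 0.0491 to 0.561 over all of them. The largest of these came without the 2 arrays of high pancreatic signal, where the difference was 0.28 and that after PBS 0.25. In Ifng-null mice Serping1 read 3254 and 3181 after PBS and 3705 and 4032 after IFN-γ, with both IFN-γ arrays above both PBS arrays by 0.26 ± 0.12 (adjusted p = 0.731). No other member had a larger positive IFN-γ change.

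C4bp, the cofactor that helps factor I cleave C4b, read 1779 and 1182 after PBS and 1869 and 1906 after IL-6 in control mice. The Socs3-deleted arrays read 1889 and 2420.3 after PBS and 2307 and 2021 after IL-6, and the Ifng-null arrays 1615 and 2037 after PBS and 1529 and 2019 after IFN-γ. The second control PBS array was the lowest of the 12. The IL-6 change in control mice was 0.38 ± 0.22 (adjusted p = 1) and the Socs3 difference after PBS 0.56 ± 0.22 (adjusted p = 0.951). Without that control array and the other array of high pancreatic signal both values were 0.09. Vtn encodes vitronectin, which keeps the terminal complex off membranes. It read 3285 and 3023 after PBS and 3485 and 3750.2 after IL-6 on the control arrays, and 4098 and 4468 after PBS and 3356 and 4203 after IL-6 on the Socs3-deleted arrays. The Ifng-null arrays of Vtn read 3494 and 4124 after PBS and 3061 and 3985 after IFN-γ. The Socs3 difference after PBS was 0.44 ± 0.16 (adjusted p = 0.951), and the changes after IL-6 were 0.20 in control and -0.19 in Socs3-deleted mice. Cfi, or factor I, the protease that inactivates C3b and C4b, read 2827 and 2476 on the control PBS arrays and 3546 and 3353 on the Socs3-deleted ones, a difference of 0.38 ± 0.13 (adjusted p = 0.951). After IL-6 the 2 genotypes overlapped, at 2403 and 3073 in control and 2988 and 2677 in Socs3-deleted mice.

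Of the receptors of the complement fragments, C3ar1 was dim and C5ar1 lay above the array medians. C3ar1, the receptor of C3a, lay between 26.4 and 37.0 and above the floor on 4 of 12 arrays. C5ar1, the receptor of C5a on myeloid cells, lay between 115 and 158. It read 136 and 158 in control and 126 and 127 in the Socs3-deleted mice after PBS, a difference of -0.22 ± 0.14 (adjusted p = 0.951), or -0.11 without the second control PBS array.

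**Figure D4:**
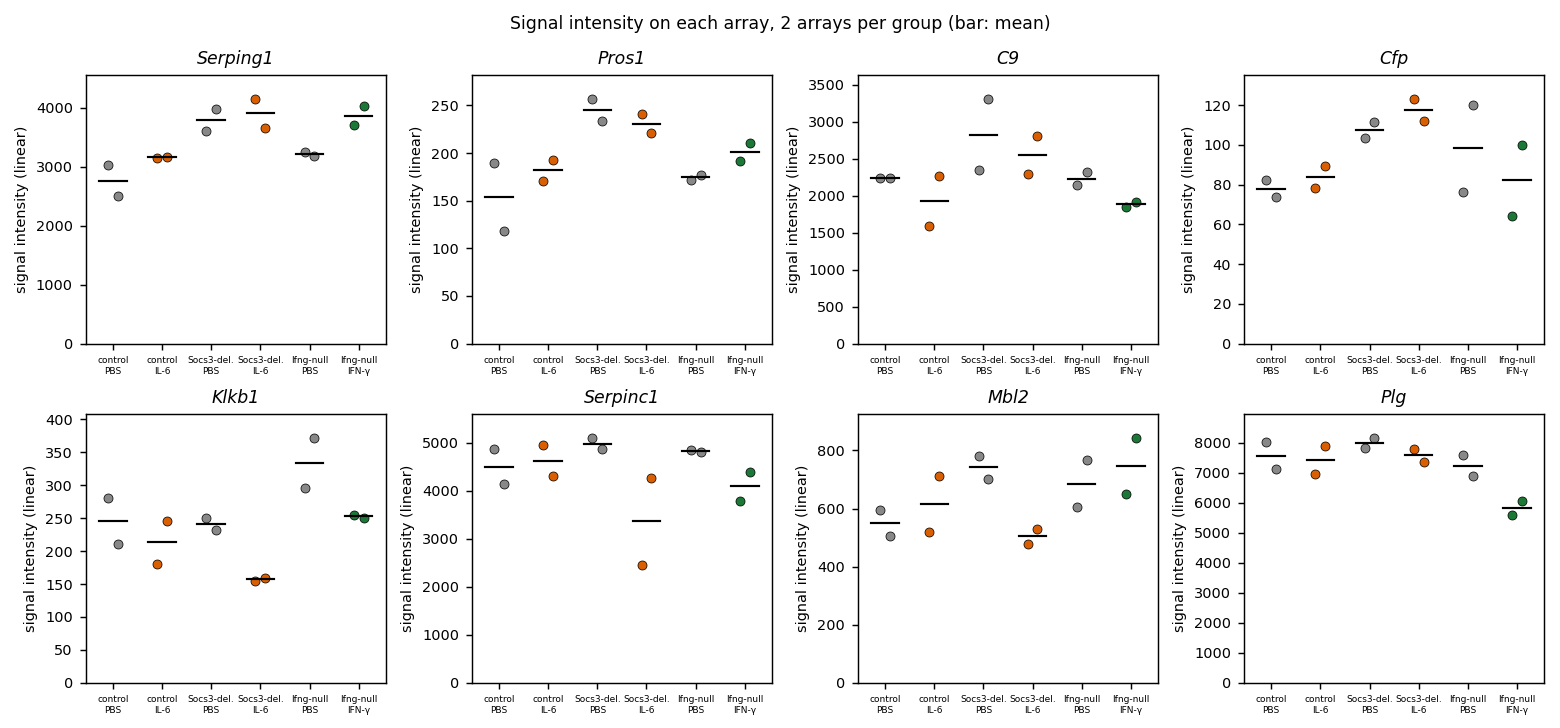
Points are the signal intensity (linear, from 0) on each of the 2 arrays of the 6 groups for 8 members (for Plg, the brighter probe set), and bars are group means. Serping1, Pros1, C9 and Cfp have all 4 Socs3-deleted arrays above all 4 control arrays; Klkb1 is lowest on the 2 Socs3-deleted IL-6 arrays, Serpinc1 has 1 low array in that group, and Plg is lowest after IFN-γ.

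Among the procoagulant factors 0 of 10 probe sets were called after either cytokine. F2 encodes prothrombin, F10 the protease that activates it, and F5 the cofactor of that step. F2 lay between 1674 and 2844, and its 2 Socs3-deleted IL-6 arrays read 1674 and 2596, which span most of the range of the 12 arrays. The brighter F10 probe set lay between 632 and 1135 and F5 between 561 and 926. F9 and F8, the protease and cofactor of the intrinsic pathway that are lacking in the haemophilias, lay between 789 and 1463 and between 68.0 and 87.3. F8 read 86.3 and 87.3 after PBS and 74.4 and 74.4 after IL-6 in the Socs3-deleted mice, with a change of -0.22 ± 0.11. F3, tissue factor, passed the floor on 4 of 12 arrays, with values from 25.5 to 42.6. All 10 probe sets of the procoagulant factors had a negative difference between the IL-6 responses, from -0.50 for F13b to -0.02 for F5, and 0 of them had an unadjusted p under 0.05. Of all probe sets 47.3% had a negative difference. Without the 2 arrays of high pancreatic signal 7 of the 10 were negative, against 55.8% of all, and F3, F5 and the dimmer F10 probe set were positive. F3 lay under the floor on all 4 Socs3-deleted arrays.

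F13b, the carrier subunit of the fibrin-crosslinking factor XIII, read 479.6 and 393 after PBS and 403 and 495 after IL-6 in control mice. The Socs3-deleted arrays read 407 and 519 after PBS and 310.1 and 359 after IL-6, and the Ifng-null arrays 441 and 624 after PBS and 423 and 566 after IFN-γ. Its 2 lowest arrays were those of Socs3-deleted mice after IL-6. The difference from control mice after IL-6 was -0.42 ± 0.22 (adjusted p = 0.669), and the difference between the IL-6 responses, -0.50 ± 0.31, was -0.18 without the 2 arrays of high pancreatic signal. F7, the protease that pairs with tissue factor, was measured by 2 probe sets that disagreed. The dimmer one read 579.7 and 677 after PBS and 439.8 and 466 after IL-6 in the Socs3-deleted mice, a change of -0.47 ± 0.17 (adjusted p = 0.324), while the brighter one gave -0.08 ± 0.11.

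In the contact system, plasma prekallikrein had the smallest F test p of all members. Klkb1, whose product is activated by factor XII and releases bradykinin from kininogen, read 281 and 211 after PBS and 180.2 and 246 after IL-6 in control mice. In the Socs3-deleted mice it read 250.2 and 232 after PBS and 155 and 159 after IL-6. Both arrays of that last group lay below all 10 others. The IL-6 change in Socs3-deleted mice was -0.62 ± 0.18, or 1.54-fold lower (adjusted p = 0.195, 95% interval from -1.03 to -0.21), against -0.21 ± 0.18 in control mice. The difference between these responses was -0.41 ± 0.26 (adjusted p = 0.999). Without the second control PBS array the control response was -0.42 and the difference -0.20. IL-6 averaged over both genotypes gave -0.41 ± 0.13 (adjusted p = 0.263). In Ifng-null mice Klkb1 read 297 and 371 after PBS, above both control PBS arrays by 0.45 ± 0.18 (adjusted p = 0.873; 0.24 without the second control PBS array), and 255 and 250.3 after IFN-γ, a change of -0.39 ± 0.18 (adjusted p = 0.731). Its F test gave an adjusted p of 0.122. F12, factor XII, and Kng1, the kininogen from which bradykinin is cut, spanned narrower ranges, at 1390.0 to 1879.5 and 4831 to 5778, and their IL-6 changes in Socs3-deleted mice were -0.09 ± 0.14 and -0.03 ± 0.10; that of F12 was -0.04 without the 2 arrays of high pancreatic signal.

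The hepatocyte markers were also lower in sum after IL-6 in Socs3-deleted mice and after IFN-γ, but not each of them. In Socs3-deleted mice Cyp2e1 read 7809 and 8670 after PBS and 8820 and 8279 after IL-6, and Rbp4 also overlapped. In Ifng-null mice Pck1 read 1057 and 656 after PBS and 1198 and 907 after IFN-γ, and Hnf4a also overlapped. Cps1 and Hpd were lower without overlap in both comparisons. The summed intensity of the 13 measured markers was 65620 to 71127 in Socs3-deleted mice after PBS and 56346 to 61257 after IL-6, with a median log2 change of -0.30 and 1 called. It was 65009 to 67536 in Ifng-null mice after PBS and 54633 to 58906 after IFN-γ, with a median of -0.26 and 0 called, and 65957 to 71069 and 63460 to 66977 in control mice after PBS and IL-6, with a median of -0.07. Their part in the members' values was not tested. Fewer cells of a type and less RNA per cell cannot be told apart in these arrays.

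The anticoagulants divided by gene. Serpinc1 encodes antithrombin, the serpin that inhibits thrombin and factor Xa. It read 4864 and 4146 after PBS and 4945 and 4312 after IL-6 in control mice, and 5094 and 4868 after PBS and 2464 and 4273 after IL-6 in the Socs3-deleted mice. The Ifng-null arrays of Serpinc1 read 4854 and 4811 after PBS and 3793 and 4395 after IFN-γ. The first Socs3-deleted IL-6 array was the lowest of the 12 and its replicate lay among the control arrays. The IL-6 change in Socs3-deleted mice was -0.62 ± 0.22 (adjusted p = 0.306). It was -1.02 without the second array of that group (adjusted p = 0.0428, the single one of 23 alternatives that passed) and -0.22 without the first (adjusted p = 0.970). These were the lowest and the highest adjusted p among the 23. The difference between the IL-6 responses was -0.66 ± 0.31 (adjusted p = 0.999), and Socs3-deleted against control mice after IL-6 gave -0.51 ± 0.22 (adjusted p = 0.526).

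Serpind1, heparin cofactor II, which inhibits thrombin alone, read 2493 and 1942 after PBS and 1664 and 2444 after IL-6 in control mice. In the Socs3-deleted mice it read 2584 and 2258 after PBS and 1649 and 1586 after IL-6, a change of -0.58 ± 0.21 (adjusted p = 0.330). The Ifng-null arrays read 2307 and 3084 after PBS and 2018 and 2419 after IFN-γ. The 2 Socs3-deleted IL-6 arrays were the 2 lowest of the 12, by a small margin under the first control IL-6 array. The difference between the IL-6 responses was -0.45 ± 0.30 (adjusted p = 0.999), or -0.27 without the second control PBS array.

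Pros1 encodes protein S, the vitamin K-dependent cofactor of activated protein C that also circulates bound to C4b-binding protein. It read 189.6 and 118 after PBS and 171 and 193 after IL-6 in control mice. In the Socs3-deleted mice it read 257 and 233 after PBS and 241 and 221 after IL-6. All 4 Socs3-deleted values exceeded all 4 control values, and the Ifng-null arrays, at 172 and 177 after PBS and 192 and 210.3 after IFN-γ, lay below all 4 Socs3-deleted ones. The averaged Socs3 difference was 0.53 ± 0.13, or 1.44-fold (adjusted p = 0.137, 95% interval from 0.22 to 0.83), with 0.71 ± 0.19 after PBS (adjusted p = 0.646) and 0.34 after IL-6. The averaged difference passed the threshold in 1 of 23 alternatives, without the first control PBS array (0.70, adjusted p = 0.0288), and its adjusted p ranged from 0.0288 to 0.363. It was 0.36 without the second control PBS array, the lowest of the 12 for this gene, and 0.39 without both arrays of high pancreatic signal (adjusted p = 0.336), where the difference after PBS alone was 0.44. That difference was 0.37 without the second control PBS array alone. The F test of Pros1 likewise passed in 1 of 22 alternatives, without the first control PBS array (adjusted p = 0.0439, range 0.0439 to 0.721), against 0.377 with all arrays.

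Proc encodes protein C, the protease that cuts factors Va and VIIIa, and its 2 probe sets differed. The dimmer one read 157 and 135 after PBS and 161 and 139 after IL-6 in control mice, and 182 and 163 after PBS and 203 and 165 after IL-6 in the Socs3-deleted mice, with an averaged Socs3 difference of 0.27 ± 0.10 (adjusted p = 0.345). The brighter one had a difference of -0.07 ± 0.10, or -0.13 without the second control PBS array. The dimmer one has the suffix for a probe set of lower specificity. Thbd, the endothelial thrombin receptor thrombomodulin, was above the floor on 1 array, the first of Socs3-deleted mice after IL-6. Its brighter probe set read 35.8 and 32.0 in that group and 11.8 to 27.4 on the others. Tfpi, the inhibitor of the tissue factor complex, lay between 24.1 and 31.0, below the floor on every array, and gives a bound only.

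Among the genes of fibrinolysis, plasminogen was lowest after IFN-γ on both of its probe sets. Plg, the precursor of plasmin, read 7571 and 6873 on its brighter probe set after PBS in Ifng-null mice and 5603 and 6056 after IFN-γ. On the other 8 arrays this probe set read 8008 and 7123 after PBS and 6968 and 7900.1 after IL-6 in control mice, and 7825 and 8144 after PBS and 7799 and 7366 after IL-6 in the Socs3-deleted mice. Its dimmer probe set read 4573 and 4078 after PBS and 3519 and 3327 after IFN-γ. In control mice it read 5148 and 4154 after PBS and 4698 and 4551 after IL-6, and in Socs3-deleted mice 5073 and 5449 after PBS and 4196 and 4497 after IL-6. The 2 IFN-γ arrays were the 2 lowest of the 12 on either probe set. The IFN-γ changes were -0.31 ± 0.11 and -0.34 ± 0.12, or 1.24-fold and 1.26-fold lower (adjusted p = 0.532 and 0.539). Neither passed the test, and their F tests gave adjusted p of 0.345 and 0.214. The brighter probe set has the suffix for probes shared by a gene family, so its values are less certain.

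Serpinf2 encodes alpha-2-antiplasmin, the main inhibitor of plasmin. Its brighter probe set read 2644 and 1841 after PBS and 2742 and 2471 after IL-6 in control mice, and 2944 and 3313 after PBS and 1679.9 and 3079 after IL-6 in the Socs3-deleted mice. The Ifng-null arrays read 2527 and 2689 after PBS and 2248 and 2552 after IFN-γ. As for Serpinc1, the first Socs3-deleted IL-6 array was the lowest of the 12 and its replicate was among the higher ones. The Socs3 difference after PBS was 0.50 ± 0.26 (adjusted p = 0.951) on this probe set and -0.24 ± 0.19 on the dimmer one, and these were 0.15 and -0.02 without the 2 arrays of high pancreatic signal. Plat and Plau, the tissue-type and urokinase plasminogen activators, lay between 32.6 and 39.7 and between 36.4 and 52.7, close to the floor. Plaur, the urokinase receptor, lay between 56.9 and 80.7, and both IFN-γ arrays exceeded both PBS arrays of Ifng-null mice, by 0.20 ± 0.12.

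F2r encodes PAR1, the receptor that thrombin cleaves, and was measured by 3 probe sets. The dimmest read 82.2 and 68.8 after PBS and 66.1 and 63.3 after IL-6 in control mice, and 59.6 and 54.1 after PBS and 54.0 and 43.4 after IL-6 in the Socs3-deleted mice. In Ifng-null mice it read 85.0 and 68.3 after PBS and 63.4 and 42.2 after IFN-γ. All 4 Socs3-deleted values lay below all 4 control values, which also held for the brightest probe set. The averaged Socs3 differences were -0.41 ± 0.14 (adjusted p = 0.321) on the dimmest, -0.24 ± 0.13 on the brightest and -0.21 ± 0.11 on the other. The IFN-γ change was -0.56 ± 0.20 on the dimmest probe set (adjusted p = 0.532), -0.08 ± 0.19 on the brightest and -0.20 ± 0.16 on the other.

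Beside the members, a list of 64 other genes of these pathways was followed, of which 43 were measured and 36 (43 probe sets) tested. In the IL-6 response of Socs3-deleted mice 1 of the 43 probe sets was called, against 1.17% of all, and the F test called 2, against 2.01%. The other 8 comparisons called 0, with 1 to 9 probe sets at an unadjusted p under 0.05. The gene called after IL-6 was A2m, alpha-2-macroglobulin, a broad protease inhibitor of plasma. It read 86.8 and 96.8 after PBS and 1452 and 1421 after IL-6 in the Socs3-deleted mice, and its change of 3.97 ± 0.78 had an adjusted p of 0.0496. In control mice it read 23.6 and 26.8 after PBS and 302 and 31.6 after IL-6, so that 1 of the 2 IL-6 arrays was high. The call held in 8 of 23 alternatives, and leaving out any 1 of the 10 arrays other than the control IL-6 ones ended it (adjusted p from 2.9e-04 to 0.332 over the 23). For A2m both IL-6 responses differed by 2.37 ± 1.10 (adjusted p = 0.999). That difference was 3.97 without the first control IL-6 array and 0.78 without the second. Of the 4 control arrays 3 were under the floor, so the difference between the responses rests on values not above it. After IL-6, A2m was higher in Socs3-deleted than in control mice by 3.85 ± 0.78 (adjusted p = 0.0638). The Ifng-null arrays of A2m read 22.1 and 23.2 after PBS and 30.6 and 68.2 after IFN-γ.

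Fgb, the fibrinogen beta chain, was called with A2m by the F test (adjusted p of 0.0482 and 0.0299). It read 2458 and 1873 after PBS and 3233 and 3528 after IL-6 in control mice, and 3647 and 3758 after PBS and 3539.7 and 3429 after IL-6 in the Socs3-deleted mice. The Ifng-null arrays of Fgb read 2642 and 2359.7 after PBS and 2562 and 2668 after IFN-γ. The 2 control PBS arrays were below all other control and Socs3-deleted arrays. The IL-6 change in control mice was 0.65 ± 0.13 (adjusted p = 0.602) and the Socs3 difference after PBS 0.79 ± 0.13 (adjusted p = 0.217). The difference between the IL-6 responses was -0.74 ± 0.19 (adjusted p = 0.629). Without the 2 arrays of high pancreatic signal these values were 0.46, 0.57 and -0.52, in that order. The F test calls held in 5 of 22 alternatives for Fgb, with adjusted p from 0.0329 to 0.197, and in 8 of 22 for A2m, with adjusted p from 1.6e-04 to 0.271. Leaving out any 1 of 11 arrays ended the call of Fgb, the exception being the first control PBS array, and leaving out any 1 of 9 ended that of A2m.

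Serpina10, the protein Z-dependent inhibitor of factor Xa, was not called. It had larger changes than any member for IL-6 in control mice, Socs3 deletion after PBS and IFN-γ. This did not hold in every comparison. Its difference between the IL-6 responses, -0.68 ± 0.47, was smaller in size than the -0.70 of Mbl2. It read 1490.4 and 816 after PBS and 2883 and 1999.9 after IL-6 in control mice, and 2110.5 and 3459 after PBS and 3447 and 3892 after IL-6 in the Socs3-deleted mice. The Ifng-null arrays read 1616 and 1247 after PBS and 2172 and 3099 after IFN-γ. Its changes were 1.12 ± 0.33 after IL-6 in control mice (adjusted p = 1), 1.29 ± 0.33 by Socs3 deletion after PBS (adjusted p = 0.590) and 0.87 ± 0.33 after IFN-γ (adjusted p = 0.591). Without the 2 arrays of high pancreatic signal the first 2 were 0.69 and 0.50. C1qa and C1qb, 2 chains of the C1q recognition molecule made by macrophages, had Socs3 differences averaged over both injections of 0.48 ± 0.20 and, on its brighter probe set, 0.47 ± 0.21. The dimmer C1qb probe set gave 0.15 ± 0.08. Both are on the macrophage marker list. Cd93, a C1q receptor-like protein of endothelial and myeloid cells, had 0.38 ± 0.09 (adjusted p = 0.120). The remaining changes named by the same rule were those of Klk1, Tfpi2, Cd59a, Cr1l, Cfhr2, Ggcx and Itgam, between -1.28 and 0.29, none of them called. The largest of them, for Klk1, a kallikrein also made by the pancreas, rest on the 2 arrays of high pancreatic signal, where it read 112 and 306 against 48.2 to 62.5 on the other 10.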

How the data were processed

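The 12 arrays measured total RNA of mouse liver, and the authors deposited linear signal intensities. The sources used here do not give the calculation behind them. Of 12488 probe sets, 66 controls were left out. Values under a floor of 33.01, the 25th percentile over all arrays, were raised to it, and log2 was taken with no further normalization. The 9641 probe sets above the floor on at least 2 arrays were tested with limma 3.58.1 (R 4.3.3) on 6 group means, with 6 residual degrees of freedom, moderated variances and Benjamini-Hochberg adjustment over all of them at 0.05. The number of arrays limits the precision. The procedure was checked on simulated data.

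The members and the gene lists were chosen with earlier results of these data known. Array values are given for members called and, per comparison, for up to 5 with the largest change whose groups did not overlap. For the contrast of both IL-6 responses, the IL-6 and PBS groups of at least 1 genotype had to be apart. From the other pathway genes, those called and up to 3 per comparison were named, and further values are given by range or as examples. Alternatives covered normalization, floor, filter, variance model, array weights, samples, replicate block and leaving out arrays. Gene names are those of the platform's probe table, and promoter windows came from RefSeq tables.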

Additional observations from a re-analysis of the deposited data

How the results depend on the processing

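In 24 alternatives, 2 of them chosen after seeing the data, 226 of 230 counts of called members were 0, as with the settings reported. The exceptions were counts of 1. Leaving out single arrays gave 0 to 1 called members for IL-6 in Socs3-deleted mice (Serpinc1, without the second IL-6 array of those mice). It gave 0 to 1 for the Socs3 genotype averaged over both injections and 0 to 1 for the F test (Pros1 in both, without the first control PBS array). Array weights gave 1 for the Socs3 genotype (Serping1). The contrast of both IL-6 responses for Serpina10 turned from -0.68 to 0.11 without the 2 arrays of high pancreatic signal. The Socs3 label difference of -51.6 had an exact p of 0.0556 when permuted within each injection. The cause of these changes was not tested, except that leaving out arrays leaves fewer samples. Over all 15 pairs of groups, the deviations of arrays with the same replicate number correlated from -0.25 to 0.66, with 8 over 0.1. Within mouse lines they correlated by 0.138 in control, 0.122 in Socs3-deleted and 0.665 in Ifng-null mice, a hint from the data and not from the labels. Over the 47 member probe sets the same correlations were -0.114, 0.289 and 0.866, in that order. The replicate block called 0 members in each comparison, with a smallest member adjusted p of 0.0975, for the Socs3 genotype. The replicate block within each mouse line also called 0, with a smallest of 0.0551 for the Socs3 genotype and 0.128 for IFN-γ. The crossed replicate block for Ifng-null against control mice also called 0. Values near the floor understate differences of dim genes.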
